A study of Canis lupus familiaris with 13 samples.

Results

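Heart tissue of 3 Dobermans with dilated cardiomyopathy was compared with heart tissue of 4 Boxers given the same diagnosis, 7 of the 13 dog samples of the series. Every sample carrying either breed's name in its label was used, and each had 1 Affymetrix canine array. The Dobermans are named K, L and R and the Boxers 1 to 4, as in the labels. The other 6 samples were hearts of 3 control mongrels (P1, P4 and P9) and of 3 mongrels subjected to pacing (LV01, LV02 and LV04). They entered the fit as 2 further groups, and their signals are given where they help to read a level. No healthy Doberman or Boxer heart was among the 13 samples, so breed and the disease of that breed cannot be told apart. The labels gave neither age nor sex, drug treatment, disease stage or sampled chamber of the Dobermans and Boxers. Nothing in them says how the samples of 1 breed are related, so the p-values of the fit rest only on the spread between samples, pooled over the 4 groups.

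In dilated cardiomyopathy the heart chambers widen and the muscle pumps weakly. Heart muscle cells shorten when calcium, released from the sarcoplasmic reticulum through the ryanodine receptor, lets myosin of the thick filament pull on actin of the thin filament. They meet their energy need mainly by burning fatty acids in mitochondria, where the citric acid cycle and the respiratory chain complete the oxidation. Connexin channels in the intercalated disc carry the impulse from cell to cell. Both breeds are known for inherited heart muscle disease, the Doberman for ventricular failure with arrhythmia and the Boxer for an arrhythmogenic form.

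Dobermans L and R stood apart from K and from the Boxers, which bears on every result below. Over the 14302 probe sets tested, the log2 signals of K correlated with those of single Boxers at 0.924 to 0.939, but with L at only 0.773 and with R at 0.806. Boxers correlated among themselves at 0.961 to 0.973. The 3′ probe set of GAPDH was read against its 5′ probe set, a ratio that goes up as RNA breaks down. It was 1.08, 2.10 and 3.62 in K, L and R, and 0.968 to 1.09 in the Boxers (exact permutation test, two-sided, p = 0.0571, adjusted over 5 array measures 0.0952). The paced mongrels had 0.967 to 0.990. The log2 ratio of the 3′ to the 5′ probe set of actin was -1.90, -1.92 and -0.08 in K, L and R against -1.97 to -1.56 in the Boxers (exact p = 0.457, adjusted 0.457). By actin R alone stood apart, and L lay with the Boxers. The median signal was 160.3, 234 and 220 in K, L and R. It was 132 to 146 in the Boxers, with no overlap (exact p = 0.0286, the smallest that 35 divisions of 7 arrays allow, adjusted 0.0714). Hybridization spike-ins averaged 4935, 18139 and 11461 in K, L and R against 5094 to 6095 in the Boxers (exact p = 0.143, adjusted 0.179). Probe sets above the filter level numbered 14339, 16647 and 16466 in K, L and R against 13111 to 13780 (exact p = 0.0286, adjusted 0.0714). The paced mongrels resembled L and R in median signal (208 to 219) and in probe sets above the filter level (16224 to 16366). In spike-ins LV01 and LV04 did too (17865 and 21932), and LV02 did not (7080.3). The median SD within a group was 0.51 log2 units in the Dobermans, 0.22 in the Boxers, 0.23 in the controls and 0.22 in the paced mongrels. The fit assumes 1 spread for all 4 groups, so its SE and p-values understate the spread of the Dobermans. Many differences are therefore given with K, L and R and again with K alone for the Dobermans, and the rest without that second fit. In that second fit K has no replicate and is assumed to vary like the other groups.

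Between all 3 Dobermans and the 4 Boxers, 5066 of 14302 probe sets (35.4%) passed an adjusted p of 0.05 in limma. All adjusted p-values below are limma's, with Benjamini-Hochberg adjustment over all probe sets tested, and differences are Doberman minus Boxer in log2(signal + 16) with their SE. Of those that passed, 3117 were higher in the Dobermans and 1949 lower. An unadjusted p under 0.05 was reached by 6899. When the 7 Doberman and Boxer arrays were fitted alone, without the mongrels, 2268 probe sets passed the adjusted threshold. The split depended on the scaling of the arrays. After quantile normalization 1550 were higher and 2124 lower, and after centring each array on its median 806 were higher and 4299 lower. The median difference over all tested probe sets was 0.20 log2 units as deposited, -0.00 after quantile normalization and -0.31 after centring. With 1 probe set per gene, 881 of 5242 genes (16.8%) were higher and 909 (17.3%) lower. Counts of the gene lists below are to be read beside these shares, and a list near them differs no more than genes at large. Leaving out 1 sample moved the probe sets that passed from 2211 without L to 8089 without K. List counts from those fits therefore cannot be set against the shares given here. Over all 14302 probe sets, 5000 were higher and 3089 lower without K, 1264 and 947 without L, and 1606 and 1131 without R. A list that moved along with them shows no trait of its own. Signals of 1774 genes (33.8%) did not overlap between the breeds. With L and R left out, 306 probe sets passed, among them 56 of 5204 genes higher (1.08%) and 72 lower (1.38%). The GAPDH ratio added to the model as a covariate left 56 probe sets. Only L and R had a ratio far from the other arrays, so this fit too rests largely on K. It cannot tell the ratio apart from whatever else sets L and R apart. Of the gene lists described below it left 1 fatty acid gene and 1 stress gene lower and 3 interferon genes higher, and no other call.

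**Figure D1:**
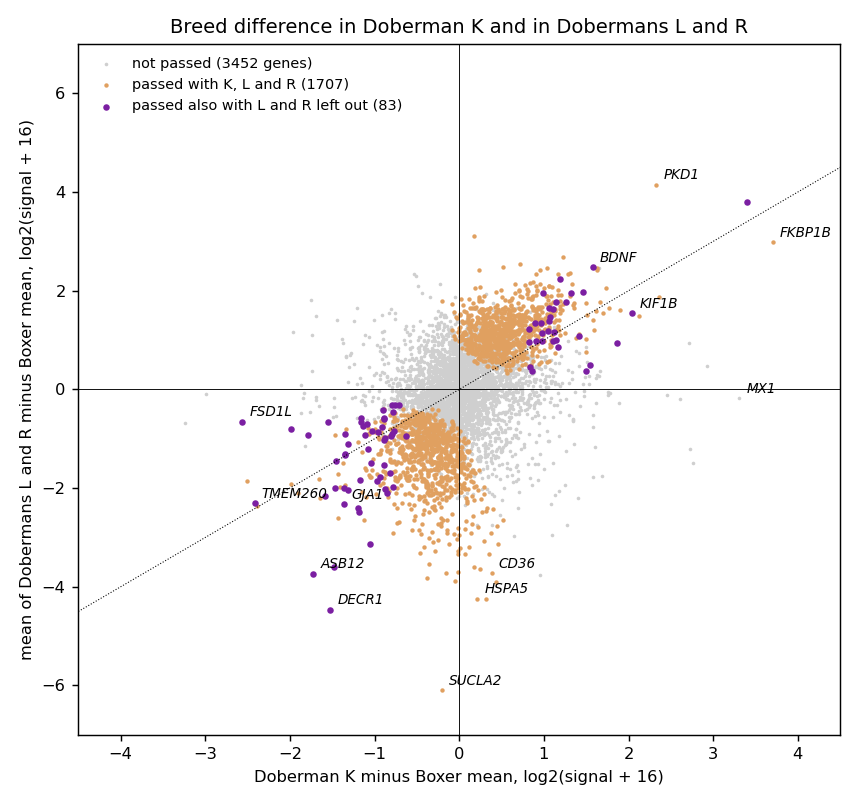
Each point is 1 of 5242 genes, with Doberman K on the horizontal and the mean of Dobermans L and R on the vertical axis, both as log2(signal + 16) minus the mean of the 4 Boxers. Grey genes did not pass with all samples, orange genes passed with K, L and R, and the 83 purple genes passed also with L and R left out. Many genes far from 0 in L and R, such as SUCLA2 and HSPA5, lie near 0 in K, and MX1 lies far to the right in K but near 0 in L and R.

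A set of 83 genes passed in the same direction in both fits, 31 higher and 52 lower in the Dobermans. A gene had to pass with K alone to enter this set, which fixed its direction in K. Those ranked by size with all samples, BDNF and LGALS2 among them, were also chosen for breeds that did not overlap. For them neither trait is a result. BDNF, a neurotrophin, was among the higher genes of the set, with signals of 726, 1517 and 1224 in Dobermans K, L and R and 207, 254, 222 and 250.5 in Boxers 1 to 4. Every Doberman lay above every Boxer. BDNF differed by 2.17 ± 0.28 (SE, adjusted p = 0.00145) log2 units, and by 1.58 (adjusted p = 0.0383) without L and R. PEA15, which binds ERK kinases in the cytoplasm, had signals of 2933, 4829.7 and 3642 in Dobermans K, L and R and 1277, 1178, 882 and 936 in Boxers 1 to 4. For PEA15 the log2 difference was 1.80 ± 0.25 (SE, adjusted p = 0.00193) and, without L and R, 1.46 (adjusted p = 0.0441). The galectin gene LGALS2 had 1078, 2204 and 2262 in Dobermans K, L and R and 476, 552, 349.8 and 492 in Boxers 1 to 4. The difference in LGALS2 was 1.89 ± 0.25 (SE, adjusted p = 0.0017) log2 units, and 1.20 (adjusted p = 0.0327) without L and R. In both genes the lowest Doberman was K, and it was still above the highest Boxer. The other tested probe set of LGALS2 was higher too.

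Kinesins, the motors that walk along microtubules, were represented by 2 of these genes. KIF5B, the heavy chain of kinesin-1, reached 708, 1255 and 966 in Dobermans K, L and R and 348, 256, 322 and 195 in Boxers 1 to 4. KIF5B differed by 1.74 ± 0.23 (SE, adjusted p = 0.0017) log2 units, and by 1.32 (adjusted p = 0.0383) without L and R. KIF1B reached 481, 384 and 293 in Dobermans K, L and R and 120.5, 126, 60.1 and 126 in Boxers 1 to 4. For KIF1B the log2 difference was 1.71 ± 0.31 (SE, adjusted p = 0.004) and, without L and R, 2.04 (adjusted p = 0.0375). For both motors the lowest Doberman lay well above the highest Boxer. FAM149A (1.61 with all samples), WFDC1 (1.25), ALDH8A1 (1.20), PPME1 (0.85) and ZNFX1 (0.75) were the other higher genes named for their size without L and R. PPME1, a methylesterase of protein phosphatase 2A, was the one of them whose breeds overlapped, since Doberman L (965) lay below Boxer 2 (996). Its call was lost without any 1 of Doberman K, Boxer 3 and Boxer 4 (0.50 to 0.82, adjusted p = 0.0604 to 0.0787). ZNFX1, a zinc finger helicase of antiviral defence, lost it without any 1 of Doberman K, Boxer 1, Boxer 3 and Boxer 4 (0.37 to 0.76, adjusted p = 0.0526 to 0.0684).

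Among the 52 genes lower in both fits, TMEM260, a protein mannosyltransferase, had the smallest adjusted p of the named genes. Its signal was 57.1, 82.7 and 47.4 in Dobermans K, L and R and 374, 443, 323 and 368 in Boxers 1 to 4, and the control mongrels stood at 209 to 386. The difference in TMEM260 was -2.34 ± 0.24 (SE, adjusted p = 0.00058) log2 units, and -2.42 (adjusted p = 0.00483) without L and R. AKR1B1, the aldose reductase that turns glucose into sorbitol, had 2903, 2843 and 2991 in Dobermans K, L and R and 7596, 10367, 8481 and 6207 in Boxers 1 to 4. AKR1B1 differed by -1.46 ± 0.18 (SE, adjusted p = 0.00145) log2 units, and by -1.46 (adjusted p = 0.0142) without L and R. ALDH1A1, which makes retinoic acid, had 523, 529.8 and 238 in Dobermans K, L and R and 1836, 1269.5, 1681 and 1209.5 in Boxers 1 to 4. For ALDH1A1 the log2 difference was -1.82 ± 0.25 (SE, adjusted p = 0.00189) and, without L and R, -1.47 (adjusted p = 0.0133). In all 3 genes the breeds did not overlap. The difference in K alone was close to that of the 3 Dobermans together in TMEM260 and AKR1B1, and smaller in ALDH1A1.

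ASB12, an ankyrin repeat protein with a SOCS box, and the kinase MAP3K15 were lower in K and lower again in L and R. ASB12 measured 137, 28.1 and 17 in Dobermans K, L and R and 505, 515, 417 and 534 in Boxers 1 to 4. ASB12 differed by -3.06 ± 0.42 (SE, adjusted p = 0.00176) log2 units, and by -1.72 (adjusted p = 0.0263) without L and R. MAP3K15 measured 121, 3.40 and 35.1 in Dobermans K, L and R and 338, 355, 521 and 284 in Boxers 1 to 4. The difference in MAP3K15 was -2.89 ± 0.48 (SE, adjusted p = 0.00296) log2 units, and -1.48 (adjusted p = 0.0383) without L and R. Signals of L and R in these genes lay under the filter level of 108, where the size of a difference depends on the pseudocount. Leaving out 1 sample moved ASB12 from -3.73 without Doberman K to -2.62 without Doberman R and MAP3K15 from -3.60 without Doberman K to -2.19 without Doberman L. LANCL1, a glutathione-binding protein, went from -3.14 without Doberman K to -2.05 without Doberman R, around -2.44 ± 0.39 (SE, adjusted p = 0.00274) with all samples and -1.06 (adjusted p = 0.0417) without L and R.

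FSD1L, TRMT13 and CHN1 were lowest in K, CHN1 by its probe set of highest signal. FSD1L had 207, 745 and 899 in Dobermans K, L and R and 1266, 965, 1696 and 1379 in Boxers 1 to 4. For FSD1L the log2 difference was -1.29 ± 0.40 (SE, adjusted p = 0.0259) and, without L and R, -2.56 (adjusted p = 0.00738). TRMT13, a transfer RNA methyltransferase, had 45.6, 65.1 and 229 in Dobermans K, L and R and 202, 257, 226 and 231 in Boxers 1 to 4. TRMT13 differed by -1.19 ± 0.37 (SE, adjusted p = 0.027) log2 units, and by -1.99 (adjusted p = 0.00973) without L and R. CHN1, a GTPase-activating protein for Rac, had 956, 2694 and 1119 in Dobermans K, L and R and 3522, 2859, 3876 and 3167 in Boxers 1 to 4. The difference in CHN1 was -1.22 ± 0.34 (SE, adjusted p = 0.017) log2 units, and -1.79 (adjusted p = 0.0307) without L and R. Another probe set of CHN1 was lowest in R, with 224, 269 and 84.4 in K, L and R (-2.32, limma adjusted p = 0.00176). Its last tested probe set went the other way and did not pass (0.75, limma adjusted p = 0.0699). Doberman R overlapped the Boxers in TRMT13, and the breeds were apart in the other 2 genes. The call for FSD1L was lost without any 1 of Doberman K, Boxer 3 and Boxer 4 (-1.26 to -0.66, adjusted p = 0.0527 to 0.0667). TRMT13 lost it without any 1 of Doberman K, Doberman L, Boxer 2, Boxer 3 and Boxer 4 (-1.19 to -0.79, adjusted p = 0.0537 to 0.107), and CHN1 without Doberman R (-1.05, adjusted p = 0.068). PPID, a cyclophilin that works with the chaperone HSP90, was lower in every Doberman. For PPID the log2 difference was -0.96 ± 0.24 (SE, adjusted p = 0.0115) and, without L and R, -1.55 (adjusted p = 0.0142). DHRS7C, a dehydrogenase/reductase of the sarcoplasmic reticulum of striated muscle, was lower too. DHRS7C differed by -1.97 ± 0.55 (SE, adjusted p = 0.0173) log2 units, and by -1.58 (adjusted p = 0.0439) without L and R. Its size turned on R, going from -2.70 without Doberman L to -1.04 without Doberman R.

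**Figure D2:**
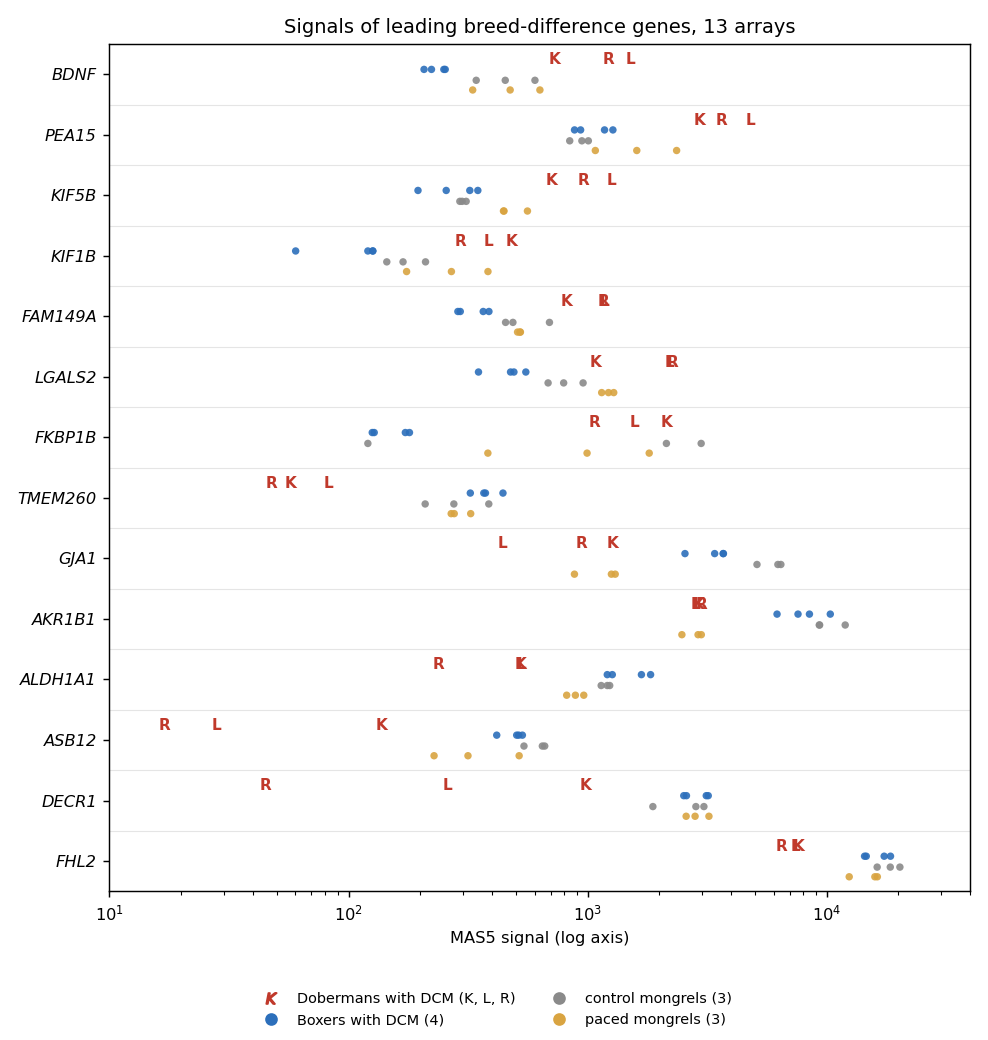
MAS5 signal on a log axis, 1 row per gene and 1 mark per array: Dobermans as the letters K, L and R, Boxers as blue, control mongrels as grey and paced mongrels as yellow points. In BDNF, PEA15, KIF5B and KIF1B all Dobermans lie to the right of all Boxers, in TMEM260, GJA1, AKR1B1 and ALDH1A1 to the left, and in ASB12 and DECR1 K lies between the Boxers and L and R.

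The largest differences with all samples were in PKD1 and FKBP1B upward and in DECR1 and ASB12 downward. Genes were ranked for this among those that passed and whose breeds did not overlap. The lack of overlap and the direction in K were thus fixed by the choice, here and where these genes return below. PKD1, which encodes the large membrane protein polycystin-1, had 384, 988 and 1965 in Dobermans K, L and R and 18.4, 193, 60.4 and 57.6 in Boxers 1 to 4. PKD1 differed by 3.54 ± 0.57 (SE, adjusted p = 0.00274) log2 units, and by 2.33 (adjusted p = 0.107) without L and R. Leaving out 1 sample moved it from 2.99 without Doberman R to 4.14 without Doberman K. RYR1, the ryanodine receptor of skeletal muscle, was higher at low signal, with 250.2, 376 and 528 in Dobermans K, L and R and 107, 109, 66.4 and 82.5 in Boxers 1 to 4. For RYR1 the log2 difference was 1.86 ± 0.28 (SE, adjusted p = 0.00243) and, without L and R, 1.33 (adjusted p = 0.0684). The neurofilament gene NEFH (2.18), the DNA damage mediator MDC1 (2.15), PBXIP1 (2.03), TM4SF5 (2.01), LRRC52 (1.98), PSD (1.95), RITA1 (1.94), FAT2 (1.93), KLKB1 (1.86) and APOC2 (1.83) were, with BDNF and LGALS2, the other higher genes. None of these 10 passed without L and R, where LRRC52 was not tested. PBXIP1 lost the call without any 1 of Doberman L, Boxer 2 and Boxer 4 (1.47 to 2.0, adjusted p = 0.0566 to 0.0935). KLKB1, the plasma prekallikrein, lost it without Doberman L (1.31, adjusted p = 0.0576). APOC2, the cofactor of lipoprotein lipase, lost it without Doberman L (1.57, adjusted p = 0.0887) or Doberman R (1.43, adjusted p = 0.0909) and went up to 2.49 without K. LRRC52 fell under the filter on signal without any 1 Doberman.

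On the lower side, PYGM, the glycogen phosphorylase of muscle, had 2464, 274 and 163 in Dobermans K, L and R and 3271, 3125, 2751 and 3769.8 in Boxers 1 to 4. The difference in PYGM was -2.68 ± 0.61 (SE, adjusted p = 0.00838) log2 units, and -0.38 (adjusted p = 0.319) without L and R. K lay just under the Boxers and L and R far under them. PDIA3, a disulfide isomerase of the endoplasmic reticulum, had the same shape, with 727, 34.8 and 114 in K, L and R against 760.2 to 1044 in the Boxers. PDIA3 differed by -2.48 ± 0.60 (SE, adjusted p = 0.0103) log2 units, and by -0.36 (adjusted p = 0.43) without L and R. So had STIP1, the cochaperone that links HSP70 to HSP90, with 1157, 198 and 120.1 against 1293 to 1748. For STIP1 the log2 difference was -2.16 ± 0.50 (SE, adjusted p = 0.00909) and, without L and R, -0.31 (adjusted p = 0.429). Leaving out 1 Doberman moved PYGM from -3.82 without Doberman K to -1.93 without Doberman R, PDIA3 from -3.55 without Doberman K to -1.61 without Doberman L and STIP1 from -3.09 without Doberman K to -1.54 without Doberman R. LRRC2 went from -3.27 without Doberman K to -1.24 without Doberman L. RCN1, a calcium-binding protein of the endoplasmic reticulum, went from -3.19 without Doberman K to -1.67 without Doberman L. PTGDS, the prostaglandin D2 synthase, went from -2.91 without Doberman K to -1.46 without Doberman R. None of these 6 passed without L and R. HACD3, an enzyme of very long fatty acid synthesis, was nearly equal in the Dobermans, with 39, 39.5 and 40 in Dobermans K, L and R and 203, 169.5, 316 and 489 in Boxers 1 to 4. The difference in HACD3 was -2.37 ± 0.59 (SE, adjusted p = 0.0116) log2 units, and -2.38 (adjusted p = 0.17) without L and R. TM4SF18 was also among the lower genes (-2.14 ± 0.42, adjusted p = 0.00535).

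GJA1 encodes connexin 43, the gap junction protein of working ventricular muscle, and was lower in the Dobermans. Its signal was 1272, 439.9 and 946 in Dobermans K, L and R and 3693, 2557, 3703 and 3403 in Boxers 1 to 4. Control mongrels had 5116 to 6441 and paced mongrels 882 to 1306. The Boxers thus stood between the controls and the Dobermans without overlap, and the paced hearts overlapped the Dobermans. GJA1 differed by -2.01 ± 0.29 (SE, adjusted p = 0.0021) log2 units, and by -1.37 (adjusted p = 0.022) without L and R. Of the 16 tested genes of the intercalated disc 5 were lower and 1 higher, and without L and R 2 were lower. Of all genes 17.3% were lower and 16.8% higher with all samples. Without L, or without R, 3 of the 16 were lower and none higher. GJA1 was 1 of the 2 and the other was CDH2, the N-cadherin that joins neighbouring cells, with 64, 56.8 and 145 in Dobermans K, L and R and 172, 201, 194 and 182 in Boxers 1 to 4. For CDH2 the log2 difference was -1.05 ± 0.29 (SE, adjusted p = 0.0167) and, without L and R, -1.34 (adjusted p = 0.0446). The call of CDH2 was lost without Doberman L (-0.84, adjusted p = 0.0727). LIMS1, an adaptor between integrins and actin, had 1098, 619.9 and 852 in Dobermans K, L and R and 2422, 3616, 3669.6 and 1982 in Boxers 1 to 4. The difference in LIMS1 was -1.74 ± 0.28 (SE, adjusted p = 0.00274) log2 units, and -1.35 (adjusted p = 0.0781) without L and R. Every Doberman lay below every Boxer in both, and the 3 other tested probe sets of LIMS1 were lower too.

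Several other disc genes did not pass. DSP, the desmoplakin of desmosomes, had 14249.5, 22209 and 6758 in Dobermans K, L and R and 14646, 14340.5, 14174 and 13551 in Boxers 1 to 4, so that L was the highest of the 7 arrays and R the lowest (-0.14 ± 0.29, adjusted p = 0.721). JUP, the plakoglobin of the same junctions, gave 0.35 ± 0.18 (SE, adjusted p = 0.142). VCL, the vinculin that anchors actin, had 744, 61.9 and 50.8 in K, L and R against 219 to 453 in the Boxers. K lay above the Boxers and L and R below them. For VCL the log2 difference was -1.19 ± 0.62 (SE, adjusted p = 0.143) and, without L and R, 1.08 (adjusted p = 0.11). PERP, a desmosomal membrane protein, passed at -1.05 ± 0.33 (SE, adjusted p = 0.0281) but lost the call without any 1 of Doberman L, Doberman R, Boxer 1, Boxer 2 and Boxer 3 (-1.06 to -0.65, adjusted p = 0.0522 to 0.133). With K alone PERP stood at -0.17.

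Of 15 calcium handling genes, 3 were higher and 4 lower, and none passed without L and R. The shares over all genes were 16.8% higher and 17.3% lower. Without L, or without R, 1 of the 15 was higher and 3 lower. FKBP1B, the largest of the higher ones, encodes calstabin 2, which binds the cardiac ryanodine receptor and steadies its closed state. Its signals were 2142, 1575 and 1069 in Dobermans K, L and R and 179.9, 173, 128 and 126 in Boxers 1 to 4, with no overlap. The difference in FKBP1B was 3.23 ± 0.81 (SE, adjusted p = 0.0118) log2 units, and 3.70 (adjusted p = 0.133) without L and R. The difference without L and R was the larger and missed the threshold. Control mongrels P1, P4 and P9 had 2138, 2989 and 120.5, and paced mongrels 383 to 1812. Control P9 was thus at the level of the Boxers, and the other 2 controls at or above that of the Dobermans. RYR2, the ryanodine receptor that calstabin 2 binds, was lower, at 4793, 3504 and 3269 in Dobermans K, L and R and 6305, 8148, 7646 and 6202 in Boxers 1 to 4. RYR2 differed by -0.88 ± 0.20 (SE, adjusted p = 0.00819) log2 units, and by -0.55 (adjusted p = 0.218) without L and R. Every Doberman was below every Boxer, and of its 3 other tested probe sets 2 were lower.

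PPP3CB, a catalytic subunit of the phosphatase calcineurin, had 917, 54.7 and 223 in K, L and R against 1013 to 1388 in the Boxers. For PPP3CB the log2 difference was -2.36 ± 0.57 (SE, adjusted p = 0.0102) and, without L and R, -0.47 (adjusted p = 0.266). Its difference went from -3.31 without Doberman K to -1.45 without Doberman L. S100A1, a calcium sensor that acts on RYR2, had 3665, 2199 and 3168 against 4516 to 6477. The difference in S100A1 was -0.87 ± 0.22 (SE, adjusted p = 0.0113) log2 units, and -0.56 (adjusted p = 0.235) without L and R. Both were below the Boxers in every Doberman, PPP3CB by its probe set of highest signal. The other tested probe set of PPP3CB gave 0.46 (limma adjusted p = 0.23). S100A1 lost the call without Doberman L (-0.66, adjusted p = 0.0511). HRC, a calcium store protein, gave -0.94 ± 0.24 (SE, adjusted p = 0.013) and lost the call without Doberman R (-0.64, adjusted p = 0.0517). The calcium pump gene ATP2A2 did not pass, with 16977, 31608 and 18341 in K, L and R against 18109 to 19392 in the Boxers (0.20 ± 0.22, adjusted p = 0.486). Of its 9 other tested probe sets 2 were lower.

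Of the tested genes of mitochondrial fuel use, 18 of 23 in the citric acid cycle list, 12 of 23 in the fatty acid list and 15 of 47 in the respiratory chain list passed as lower in the Dobermans, and none passed as higher. Without L and R 1, 3 and 5 passed as lower. In the model that includes the GAPDH ratio 0, 1 and 0 did. For the list of citric acid cycle and pyruvate entry genes the median difference was -0.98 log2 units, against 0.04 over all 5242 genes. Relative to the Boxer mean the list median was -0.39, -1.5 and -0.87 in K, L and R, while the Boxers lay between -0.05 and 0.10. The direction was the same in all 3 Dobermans, and the size was smallest in K. After quantile normalization 17 were lower, with a median of -0.81. Without L 11 were lower, without R 14, without K 19, and without both L and R 1.

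That 1 gene was FH, the fumarase that hydrates fumarate to malate. Its signals were 1922, 1717 and 1776 in Dobermans K, L and R and 3418, 3611, 3652 and 3599.9 in Boxers 1 to 4, with the Dobermans close together. FH differed by -0.98 ± 0.14 (SE, adjusted p = 0.00207) log2 units, and by -0.89 (adjusted p = 0.0204) without L and R. MPC1, a subunit of the carrier that takes pyruvate into mitochondria, had 7573, 3499 and 2944 in Dobermans K, L and R and 10549.9, 10137, 11864 and 13477 in Boxers 1 to 4. For MPC1 the log2 difference was -1.42 ± 0.26 (SE, adjusted p = 0.00416) and, without L and R, -0.59 (adjusted p = 0.108). PDHB, a subunit of pyruvate dehydrogenase, had 5855, 1532 and 1982 in Dobermans K, L and R and 7602, 8416, 8135 and 8505 in Boxers 1 to 4. The difference in PDHB was -1.64 ± 0.32 (SE, adjusted p = 0.00529) log2 units, and -0.48 (adjusted p = 0.0851) without L and R. DLD, the dehydrogenase subunit that this complex shares with the oxoglutarate complex, had 6981, 4438 and 5191 in K, L and R against 9133 to 10361 in the Boxers. DLD differed by -0.80 ± 0.17 (SE, adjusted p = 0.00643) log2 units, and by -0.44 (adjusted p = 0.136) without L and R. In MPC1, PDHB and DLD, K lay below the lowest Boxer and above L and R. SUCLA2, a subunit of succinyl-CoA synthetase, was picked out after its values were seen. It had 2935, 31.3 and 36.3 in Dobermans K, L and R and 3718, 3289, 2780.1 and 3892 in Boxers 1 to 4, so that L and R were far below every other value and K lay within the Boxer range. For SUCLA2 the log2 difference was -4.13 ± 1.00 (SE, adjusted p = 0.0104) and, without L and R, -0.21 (adjusted p = 0.615).

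Of 23 tested genes of fatty acid uptake and oxidation, 12 were lower, with a median of -0.69. Relative to the Boxer mean it was -0.30, -1.01 and -0.59 in K, L and R. Without L, or without R, 8 were lower, without Boxer 1 7, and without K 14, with 1 higher. Without both L and R 3 passed, ACSL1, ACAT1 and DECR1. ACSL1, which activates long-chain fatty acids with coenzyme A, had 3774, 2907 and 2599 in Dobermans K, L and R and 8656, 6716, 8352 and 7584 in Boxers 1 to 4. The difference in ACSL1 was -1.35 ± 0.17 (SE, adjusted p = 0.00145) log2 units, and -1.04 (adjusted p = 0.0171) without L and R. ACAT1, the mitochondrial thiolase of ketone and isoleucine breakdown, had 3214, 986 and 1670 in Dobermans K, L and R and 6838, 7065, 7222 and 8160.2 in Boxers 1 to 4. ACAT1 differed by -2.06 ± 0.29 (SE, adjusted p = 0.00204) log2 units, and by -1.18 (adjusted p = 0.0142) without L and R. DECR1, the dienoyl-CoA reductase needed for unsaturated fatty acids, had 981, 259 and 44.9 in Dobermans K, L and R and 2528, 3139, 2593 and 3199 in Boxers 1 to 4. For DECR1 the log2 difference was -3.49 ± 0.62 (SE, adjusted p = 0.00375) and, without L and R, -1.52 (adjusted p = 0.0142). In each of the 3 genes every Doberman was below every Boxer. All 3 other probe sets of ACSL1, and all 3 of DECR1, were lower too, and 1 of the 2 others of ACAT1. Leaving out 1 sample moved DECR1 from -4.47 without Doberman K to -2.45 without Doberman R. ETFDH, which passes electrons from fatty acid oxidation to ubiquinone, was lower with all samples. The difference in ETFDH was -1.25 ± 0.23 (SE, adjusted p = 0.00401) log2 units, and -0.55 (adjusted p = 0.0816) without L and R.

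PDK4, the kinase that switches off pyruvate dehydrogenase, is a gene linked to Doberman cardiomyopathy. It varied widely within each breed, at 8259.9, 1588 and 8532 in Dobermans K, L and R and 4075, 7051, 2370 and 11056 in Boxers 1 to 4, and did not pass (-0.12 ± 0.55, adjusted p = 0.875).

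For the respiratory chain and ATP synthase, 15 of 47 tested genes were lower, with a median of -0.28. Relative to the Boxer mean the list median was -0.273, -0.567 and -0.077 in K, L and R, and -0.080 to 0.062 in the Boxers. R thus lay within the Boxer range. Without L 7 were lower and without R 16. Without K 20 were lower and 5 higher, and without both L and R 5 were lower. NDUFS8, an iron-sulphur subunit of complex I, passed in both fits, as did NDUFB6. The signal of NDUFS8 was 5499.5, 5345 and 3713 in Dobermans K, L and R and 7928, 9169, 8819.6 and 8309 in Boxers 1 to 4. NDUFS8 differed by -0.84 ± 0.16 (SE, adjusted p = 0.00474) log2 units, and by -0.63 (adjusted p = 0.0393) without L and R. CYC1, the cytochrome c1 of complex III, had 7447, 5166 and 3941 in K, L and R against 9064 to 10609 in the Boxers. For CYC1 the log2 difference was -0.86 ± 0.20 (SE, adjusted p = 0.00876) and, without L and R, -0.38 (adjusted p = 0.231). Both were lower in every Doberman. Mitochondrial ribosome genes were lower in 13 and higher in 3 of 52, and MRPL1 was the one that passed both ways. It had 965, 428 and 664 in K, L and R against 1835 to 1906 in the Boxers. The difference in MRPL1 was -1.5 ± 0.23 (SE, adjusted p = 0.00245) log2 units, and -0.94 (adjusted p = 0.0342) without L and R. Without K 20 of these genes were lower, and without L 8. Glycolysis and glycogen genes were divided, with 4 lower and 2 higher of 21 and a median of -0.01. For both lists the shares over all genes were 17.3% lower and 16.8% higher. Without L 1 of the 21 glycolysis and glycogen genes was lower and none higher, and without K 6 and 7. CKMT2, the mitochondrial creatine kinase, was lower in every Doberman (-0.98 ± 0.28, adjusted p = 0.0186) and lost the call without Doberman L (-0.53, adjusted p = 0.0547).

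**Figure D3:**
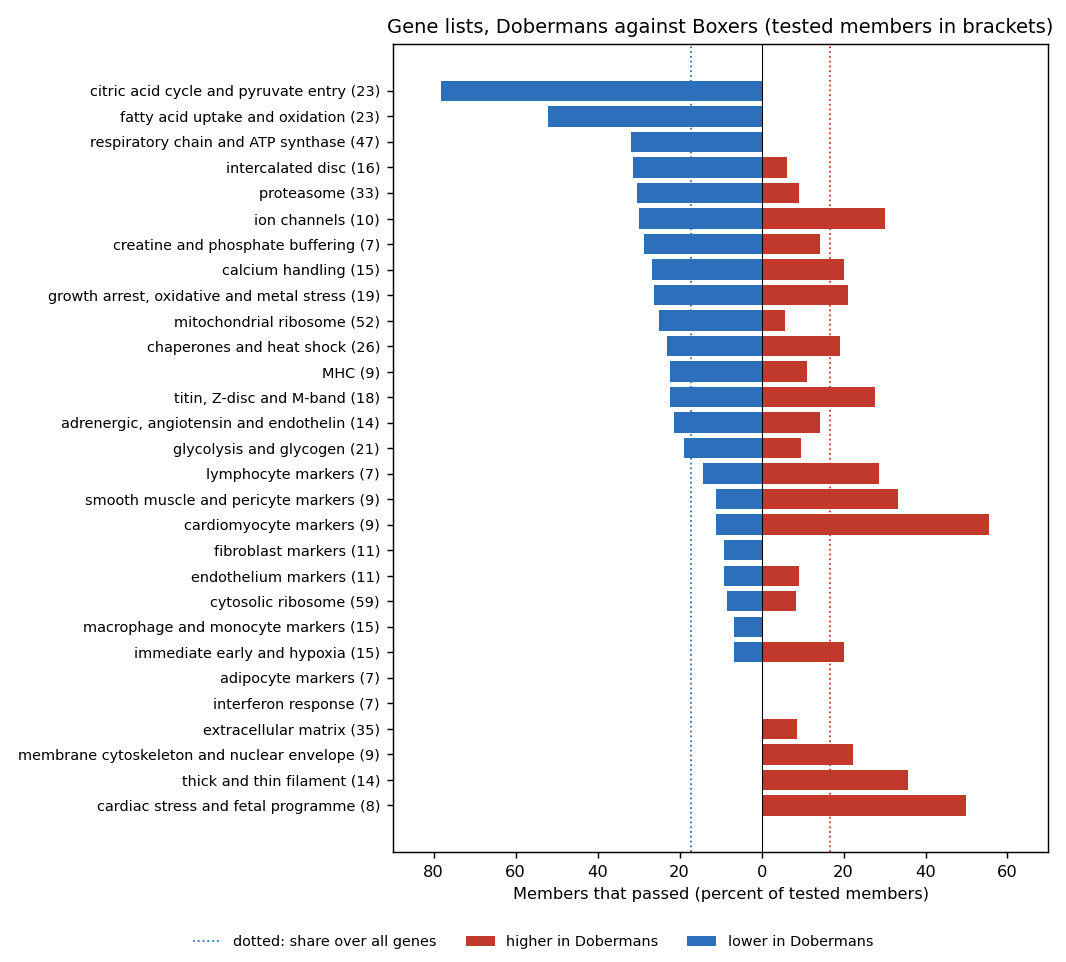
Percent of the tested members of each gene list that passed, higher in Dobermans to the right in red and lower to the left in blue, for lists with at least 7 tested members. The dotted lines give the share over all genes, 16.8% higher and 17.3% lower; the citric acid cycle, fatty acid and respiratory chain lists have bars to the left only.

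**Figure D4:**
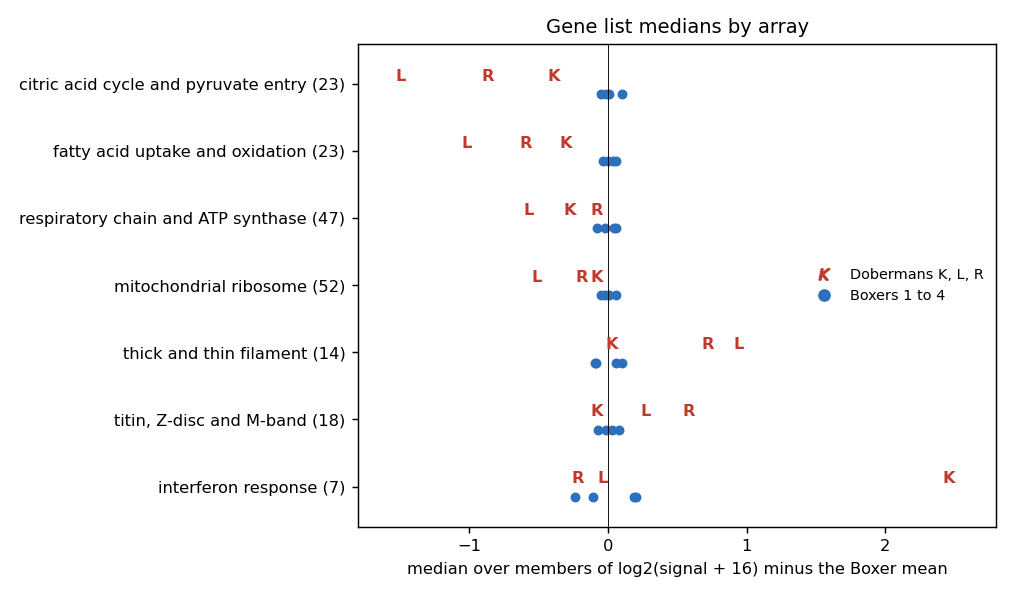
Median over the tested members of a list of log2(signal + 16) minus the Boxer mean, 1 mark per array, Dobermans as letters and Boxers as blue points. The citric acid cycle and fatty acid lists run to the left in the order L, R, K. The thick and thin filament list stands at 0.03 in K but at 0.94 in L and 0.72 in R, and the interferon list is far to the right in K.

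By their median, the genes of the contractile filaments stood higher in L and R and level with the Boxers in K. Of 14 tested thick and thin filament genes 5 were higher and none lower. The median was 0.57, and turned to -0.06 after quantile normalization. Relative to the Boxer mean it was 0.03, 0.94 and 0.72 in K, L and R. Without L, or without R, 1 was higher, and without K 10 were. Over all 14302 probe sets, 5000 were higher without K. TNNC1, the cardiac troponin C, had 28048, 57862 and 66231 in Dobermans K, L and R and 23807, 25529, 27008 and 28021 in Boxers 1 to 4. TNNC1 differed by 0.87 ± 0.25 (SE, adjusted p = 0.0196) log2 units, and by 0.11 (adjusted p = 0.772) without L and R. After quantile normalization it stood at -0.032. MYL2, the ventricular light chain (0.78, and -0.079 after quantile normalization), MYH7, the main ventricular myosin heavy chain (0.76 and -0.17), and TNNI3, cardiac troponin I (0.83 and -0.062), also changed sign with the scaling. These 4 calls were lost when L was left out, TNNC1 at 0.73, MYL2 at 0.67, MYH7 at 0.56 and TNNI3 at 0.63, and when R was. Of the 5 other tested probe sets of MYH7, 2 were higher and 2 lower.

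TPM2, the beta tropomyosin, was the exception among the filament genes, with 2840, 3031 and 3187 in Dobermans K, L and R and 1583, 1656, 1518 and 1617 in Boxers 1 to 4. Every Doberman lay above every Boxer, and a further probe set was higher too. For TPM2 the log2 difference was 0.91 ± 0.14 (SE, adjusted p = 0.00222) and, without L and R, 0.83 (adjusted p = 0.0221). ACTA1, the skeletal actin, had 320.5, 1245 and 1021 in Dobermans K, L and R and 1345, 1034, 1256 and 1125 in Boxers 1 to 4, with K low and L and R within or close to the Boxers. The difference in ACTA1 was -0.66 ± 0.35 (SE, adjusted p = 0.15) log2 units, and -1.83 (adjusted p = 0.00738) without L and R. Of its 3 other probe sets 2 were higher. ACTC1, the cardiac actin (0.55 ± 0.21, adjusted p = 0.0563), and TNNT2, cardiac troponin T (0.58 ± 0.23, adjusted p = 0.0612), did not pass.

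Z-disc and M-band genes were divided, with 5 of 18 higher and 4 lower, beside 16.8% and 17.3% of all genes. Without L 2 were higher and 3 lower, and without R 1 and 3. FHL2, a LIM protein that binds titin, was lower by nearly the same amount in each Doberman, at 7645, 7449 and 6505 in Dobermans K, L and R and 14659, 14422, 17422 and 18518 in Boxers 1 to 4. FHL2 differed by -1.17 ± 0.16 (SE, adjusted p = 0.00204) log2 units, and by -1.08 (adjusted p = 0.0204) without L and R. PDLIM3, a LIM protein of the Z-disc, had 781, 672 and 426 in K, L and R against 1203 to 2231 in the Boxers. For PDLIM3 the log2 difference was -1.45 ± 0.28 (SE, adjusted p = 0.00458) and, without L and R, -1.10 (adjusted p = 0.119). Its relative PDLIM5 gave -1.77 ± 0.38 (SE, adjusted p = 0.00667) and went from -2.45 without Doberman K to -1.31 without Doberman L. DES, the desmin of intermediate filaments, was higher in every Doberman, slightly so in K, at 18716, 45939 and 44678 in Dobermans K, L and R and 14158, 14592, 15523 and 18134 in Boxers 1 to 4. The difference in DES was 1.12 ± 0.26 (SE, adjusted p = 0.009) log2 units, and 0.27 (adjusted p = 0.372) without L and R. ANKRD1, a stretch-responsive partner of titin, had 7696, 10836 and 15517 against 4294 to 5778 and lost the call without Doberman R (0.86, adjusted p = 0.0653). ANKRD1 differed by 1.12 ± 0.30 (SE, adjusted p = 0.0147) log2 units, and by 0.62 (adjusted p = 0.377) without L and R.

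TTN, in which variants have been linked to Doberman cardiomyopathy, had 21484, 36550 and 48437 in Dobermans K, L and R and 21739, 20411, 22900.4 and 24320.5 in Boxers 1 to 4. K lay within the Boxer range and L and R above it, and the gene did not pass. For TTN the log2 difference was 0.59 ± 0.23 (SE, adjusted p = 0.0557) and, without L and R, -0.05 (adjusted p = 0.874). Of its 16 other tested probe sets 2 were higher and 1 lower. The dystrophin gene DMD (-0.38 ± 0.30, adjusted p = 0.316) and the lamin gene LMNA (0.25 ± 0.26, adjusted p = 0.445) did not pass either. SGCA, a sarcoglycan of the dystrophin complex, was higher in every Doberman, with 2091, 3719.8 and 2937 against 1413 to 1858. The difference in SGCA was 0.84 ± 0.19 (SE, adjusted p = 0.00875) log2 units, and 0.40 (adjusted p = 0.252) without L and R.

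Of 10 tested ion channel genes 3 were higher and 3 lower, and none passed without L, or without L and R. Over all genes 16.8% were higher and 17.3% lower with all samples. KCND3, a channel of the transient outward current, had 336, 794 and 369.5 in Dobermans K, L and R and 164, 179, 196 and 79.9 in Boxers 1 to 4. KCND3 differed by 1.55 ± 0.38 (SE, adjusted p = 0.0108) log2 units, and by 1.11 (adjusted p = 0.23) without L and R. By this probe set, the one of highest signal, every Doberman lay above every Boxer. The call was lost without Doberman L (1.17, adjusted p = 0.0553). The other tested probe set of KCND3 did not pass (-0.38, limma adjusted p = 0.664). There K and R, at 25.1 and 124, lay below the Boxers at 153 to 165, and L, at 406, above them. KCNE2, an accessory potassium channel subunit, gave 1.07 ± 0.30 (SE, adjusted p = 0.0177) and lost the call without Doberman L (0.74, adjusted p = 0.0893). KCNH2, the pore of the rapid delayed rectifier, gave 0.81 ± 0.23 (SE, adjusted p = 0.0191) and lost it without Doberman L (0.62, adjusted p = 0.0885) or Doberman R (0.77, adjusted p = 0.0571). The transporter CLCN3 was lower at -0.99 ± 0.28 (SE, adjusted p = 0.0173) and lost the call without Doberman L (-0.59, adjusted p = 0.0704). ATP1B1, the beta subunit of the sodium pump, and KCNJ8, the pore of a potassium channel gated by ATP, were lower in L and R and not in K by the probe sets of highest signal. Their differences of -0.88 and -1.07 turned to 0.06 (adjusted p = 0.908) and 0.14 (adjusted p = 0.787) without L and R. ATP1B1 lost the call without any 1 of Doberman L, Doberman R, Boxer 1, Boxer 2 and Boxer 3 (-0.91 to -0.58, adjusted p = 0.0577 to 0.162), and KCNJ8 without any 1 of Doberman L, Doberman R, Boxer 1, Boxer 2, Boxer 3 and Boxer 4 (-1.16 to -0.67, adjusted p = 0.0522 to 0.185). The other tested probe set of KCNJ8 passed in the opposite direction, with 399.6, 396 and 467 in K, L and R against 33.5 to 75.3 in the Boxers (2.67 ± 0.29, adjusted p = 0.000738). It was higher in every Doberman, so the data give no 1 direction for this gene.

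Chaperone genes were higher in 5 and lower in 6 of 26, and none passed without L and R. The shares over all genes were 16.8% higher and 17.3% lower. Without L 1 chaperone gene was higher and 2 lower, and without K 7 and 11. Over all 14302 probe sets, 5000 were higher and 3089 lower without K. HSPA5 (BiP), the HSP70 of the endoplasmic reticulum, had 2921, 90.2 and 153 in Dobermans K, L and R and 2045, 2520.5, 1939 and 4012 in Boxers 1 to 4. K lay within the Boxer range and L and R far under it. For HSPA5 the log2 difference was -2.76 ± 0.79 (SE, adjusted p = 0.0193) and, without L and R, 0.21 (adjusted p = 0.762). Its difference went from -4.24 without Doberman K to -1.85 without Doberman L, and the call was lost without Doberman L (-1.85, adjusted p = 0.105) or Doberman R (-2.18, adjusted p = 0.0866). HSPA9, the mitochondrial HSP70, was lower in every Doberman by its probe set of highest signal, with 2125, 635 and 776 against 2657 to 2839.5 in the Boxers. The difference in HSPA9 was -1.42 ± 0.30 (SE, adjusted p = 0.00683) log2 units, and -0.37 (adjusted p = 0.257) without L and R. The other tested probe set of HSPA9 did not pass (0.11, limma adjusted p = 0.693). It had 540, 529 and 787 in K, L and R against 488 to 722 in the Boxers. HSPB8, a small heat shock protein, was higher in every Doberman, with 14979, 21852 and 19620.5 against 12274 to 12816. HSPB8 differed by 0.58 ± 0.15 (SE, adjusted p = 0.0133) log2 units, and by 0.27 (adjusted p = 0.22) without L and R. Another probe set of HSPB8 passed in the opposite direction, with 9438.5, 1416 and 674 in K, L and R against 6385 to 7570.2 in the Boxers (-1.72 ± 0.58, adjusted p = 0.0352). There K lay above the Boxers and L and R far below them. CLU, the secreted chaperone clusterin, had 13149.8, 12089 and 9493 in Dobermans K, L and R and 5228, 4293, 4174 and 6310.1 in Boxers 1 to 4. For CLU the log2 difference was 1.22 ± 0.35 (SE, adjusted p = 0.0197) and, without L and R, 1.41 (adjusted p = 0.159). It was higher in every Doberman and lost the call without Doberman L or Boxer 3 (1.14 to 1.18, adjusted p = 0.0506 to 0.0668). CRYAB, the alpha-B crystallin, gave 0.94 as deposited, -0.029 after quantile normalization and 0.09 (adjusted p = 0.82) without L and R. It lost the call without Doberman L (0.78, adjusted p = 0.0816) or Doberman R (0.67, adjusted p = 0.084).

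Stress genes were higher in 4 and lower in 5 of 19, and AKR1B1 alone passed without L and R. The shares over all genes were 16.8% higher and 17.3% lower. Without L 2 stress genes were higher and 3 lower, and without R 2 and 2. PTGR1, a prostaglandin reductase, had 2693, 2697 and 3814 in Dobermans K, L and R and 1073, 600.5, 898 and 1349 in Boxers 1 to 4. PTGR1 differed by 1.67 ± 0.26 (SE, adjusted p = 0.00262) log2 units, and by 1.5 (adjusted p = 0.0567) without L and R. CDKN1A, an inhibitor of the cell cycle, had 5143, 5671 and 3840.3 in Dobermans K, L and R and 1378, 1192, 1472 and 2569 in Boxers 1 to 4. The difference in CDKN1A was 1.60 ± 0.42 (SE, adjusted p = 0.0145) log2 units, and 1.69 (adjusted p = 0.166) without L and R. Both were higher in every Doberman, and CDKN1A lost the call without Doberman L (1.48, adjusted p = 0.0593). PRDX3, a mitochondrial peroxiredoxin, was lower in every Doberman, with 8356, 3294 and 2642 against 8829.7 to 12274. For PRDX3 the log2 difference was -1.29 ± 0.29 (SE, adjusted p = 0.0084) and, without L and R, -0.29 (adjusted p = 0.351). SOD2, the mitochondrial superoxide dismutase, had 5766, 648 and 434 against 4972 to 6399.6, low in L and R and level in K. The difference in SOD2 was -2.21 ± 0.59 (SE, adjusted p = 0.0154) log2 units, and 0.06 (adjusted p = 0.854) without L and R. Leaving out 1 sample moved it from -3.34 without Doberman K to -1.5 without Doberman R, and the call was lost without Doberman L (-1.78, adjusted p = 0.0778) or Doberman R (-1.5, adjusted p = 0.0732).

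The proteasome list had 10 of 33 genes lower and 3 higher, beside 17.3% and 16.8% of all genes, with a median of -0.40. By array it was -0.16, -0.66 and -0.24 in K, L and R. Without L 6 were lower, without K 17, and without L and R none. PSMA2, a subunit of the alpha ring, had 3275, 1004 and 1649 against 4198 to 4311 in the Boxers. PSMA2 differed by -1.27 ± 0.28 (SE, adjusted p = 0.00759) log2 units, and by -0.37 (adjusted p = 0.18) without L and R. Cytosolic ribosome genes were 5 higher and 5 lower of 59, beside 16.8% and 17.3% of all genes. Without K 19 of the 59 were higher and 10 lower, and without L 2 and 2. Over all 14302 probe sets, 5000 were higher and 3089 lower without K, and 1264 and 947 without L. RPS13, a protein of the small subunit, had 6814, 10084 and 7991 in Dobermans K, L and R and 3811, 3706, 3875 and 4005 in Boxers 1 to 4. For RPS13 the log2 difference was 1.09 ± 0.16 (SE, adjusted p = 0.0021) and, without L and R, 0.82 (adjusted p = 0.0221). RPS3A, of the same subunit, had 2109.6, 2249.9 and 3945 in Dobermans K, L and R and 4213, 4307, 5818 and 4798 in Boxers 1 to 4. The difference in RPS3A was -0.83 ± 0.24 (SE, adjusted p = 0.0181) log2 units, and -1.16 (adjusted p = 0.0406) without L and R. RPS13 was higher and RPS3A, by its probe set of highest signal, lower in every Doberman. RPS3A lost the call without Doberman L or Boxer 3 (-0.74 to -0.71, adjusted p = 0.0521 to 0.0752). The other tested probe set of RPS3A gave 0.01 (limma adjusted p = 0.976).

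Of 8 tested genes of the cardiac stress and fetal programme 4 were higher and none lower, and none passed without L and R. Without L, or without R, 1 was higher. CRYM, a thyroid hormone binding protein, had 346, 1104 and 874 in Dobermans K, L and R and 184, 193, 246 and 231 in Boxers 1 to 4. For CRYM the log2 difference was 1.64 ± 0.41 (SE, adjusted p = 0.0116) and, without L and R, 0.66 (adjusted p = 0.465). Every Doberman lay above every Boxer. The transcription factor ATF4 (0.79 ± 0.27, adjusted p = 0.0359) and the angiotensinogen gene AGT (0.75 ± 0.27, adjusted p = 0.046) passed too, but with overlap, and ANKRD1, given above, was the fourth. With K alone ATF4 stood at 0.05 and AGT at 0.04. ATF4 lost the call without any 1 of Doberman L, Doberman R, Boxer 1, Boxer 2, Boxer 3 and Boxer 4 (0.38 to 0.83, adjusted p = 0.0564 to 0.152), and AGT without any 1 of Doberman L, Doberman R, Boxer 1, Boxer 2, Boxer 3 and Boxer 4 (0.48 to 0.78, adjusted p = 0.0723 to 0.206). Immediate early and hypoxia genes were higher in 3 and lower in 1 of 15, beside 16.8% and 17.3% of all genes. BNIP3, which marks mitochondria for removal, had 8593, 8818 and 13819.9 in Dobermans K, L and R and 6732, 6368, 7300.4 and 7036 in Boxers 1 to 4. The difference in BNIP3 was 0.57 ± 0.17 (SE, adjusted p = 0.0247) log2 units, and 0.33 (adjusted p = 0.223) without L and R. JUNB, an AP-1 subunit, had 2833, 2994 and 2683 in Dobermans K, L and R and 1303, 1066, 831 and 2569 in Boxers 1 to 4. JUNB differed by 1.10 ± 0.35 (SE, adjusted p = 0.029) log2 units, and by 1.10 (adjusted p = 0.267) without L and R. Every Doberman lay above every Boxer in both, for BNIP3 by its probe set of highest signal. No other tested probe set of BNIP3 passed. In its next by signal Doberman L, at 4974, lay below the Boxers at 6012 to 6702 (0.25, limma adjusted p = 0.394). In another L had 4939 against 5232 to 5703 (0.33, limma adjusted p = 0.213). JUNB lost the call without any 1 of Doberman L, Doberman R, Boxer 1, Boxer 2 and Boxer 3 (0.88 to 1.14, adjusted p = 0.0552 to 0.0894), and BNIP3 without any 1 of Doberman R, Boxer 1 and Boxer 2 (0.35 to 0.56, adjusted p = 0.053 to 0.0879). PFKFB3, a regulator of glycolysis (0.55 ± 0.20, adjusted p = 0.0498), and the lower gene NFIL3, a transcription factor (-0.74 ± 0.23, adjusted p = 0.0254), were the others, and none of the 4 passed without L and R.

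None of the 14 adrenergic, angiotensin and endothelin genes tested passed without L and R, and with all samples 2 were higher and 3 lower. Over all genes 16.8% were higher and 17.3% lower with all samples. Without L 1 of the 14 was lower and none higher. EDN1, which encodes endothelin 1, had 379.7, 624 and 815 in Dobermans K, L and R and 179.7, 349, 208 and 250.4 in Boxers 1 to 4. EDN1 differed by 1.22 ± 0.34 (SE, adjusted p = 0.0179) log2 units, and by 0.63 (adjusted p = 0.458) without L and R. Every Doberman lay above every Boxer, and the call was lost without Doberman L (1.17, adjusted p = 0.0637) or Doberman R (0.98, adjusted p = 0.0783). The endothelin receptor EDNRA was lower at -1.41 ± 0.41 (SE, adjusted p = 0.0195) and lost the call without Doberman L (-1.41, adjusted p = 0.062) or Doberman R (-0.79, adjusted p = 0.0759). With K alone EDNRA stood at -0.17. PRKACA, a catalytic subunit of protein kinase A, had 284, 93.4 and 169 in Dobermans K, L and R and 845, 1020.5, 183 and 943 in Boxers 1 to 4, so that Boxer 3 fell among the Dobermans. For PRKACA the log2 difference was -1.81 ± 0.51 (SE, adjusted p = 0.0178) and, without L and R, -1.10 (adjusted p = 0.403). Its call was lost without Doberman L (-1.44, adjusted p = 0.0884) or Doberman R (-1.83, adjusted p = 0.0513).

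Extracellular matrix genes gave few calls beside the 16.8% higher and 17.3% lower over all genes. Of the 35 matrix genes 3 were higher and none lower. Their median was 0.04, and 0.32, -0.04 and -0.54 in K, L and R. Without K 8 were lower and 4 higher. The higher genes were the elastin gene ELN (0.76 ± 0.21, adjusted p = 0.0155), the cross-linking enzyme LOXL2 (1.03 ± 0.30, adjusted p = 0.0213) and the collagen gene COL5A1 (0.58 ± 0.20, adjusted p = 0.039). ELN lost the call without Doberman R (0.63, adjusted p = 0.0599). LOXL2 lost it without any 1 of Doberman L, Doberman R and Boxer 2 (0.85 to 1.07, adjusted p = 0.0565 to 0.0724). COL5A1 lost it without any 1 of Doberman L, Doberman R, Boxer 1, Boxer 2, Boxer 3 and Boxer 4 (0.42 to 0.61, adjusted p = 0.0602 to 0.155).

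Marker genes of the cell types in heart tissue were measured beside these lists. In whole tissue, fewer cells of a type and less RNA per cell cannot be told apart. Signals of the 9 cardiomyocyte markers measured summed to 203196, 417041 and 378776 in K, L and R and to 189382 to 212377 in the Boxers. K lay inside the Boxer range and L and R well above it. Of these 9, 5 were higher and 1, RYR2, lower, and none passed without L and R. Without L, or without R, RYR2 alone passed, and without K 7 were higher. Smooth muscle and pericyte markers, desmin included, summed to 56841, 88656 and 90210.2 against 39879 to 49260. MCAM, an adhesion molecule of pericytes and vessels, had 526, 861 and 738 in Dobermans K, L and R and 291, 228, 263 and 260.2 in Boxers 1 to 4. MCAM differed by 1.37 ± 0.26 (SE, adjusted p = 0.00458) log2 units, and by 0.98 (adjusted p = 0.148) without L and R. Of the 9 markers tested 3, DES, CRIP1 and MCAM, were higher and 1, KCNJ8 by its probe set of highest signal, lower. DES and CRIP1 made most of the excess of the sum in L and R, CRIP1 with 7842, 21631 and 15585 in K, L and R against 3680.2 to 5693 in the Boxers. MYH11, the smooth muscle myosin, had 3017, 736 and 2104 against 1821 to 3049, and TAGLN, an actin-binding protein of smooth muscle, 7263, 4812 and 4609 against 3925 to 7053. Neither passed, and both overlapped between the breeds. Endothelial markers summed to 25353, 25075 and 29633 against 31072 to 32223. Of 11 tested 1 was lower and 1 higher, and the list median was -0.01. The lower gene was CAV1, the caveolin of surface pits and among the largest terms of the sum, with 7369.9, 4829 and 4079.8 against 10369.5 to 11345. For CAV1 the log2 difference was -1.04 ± 0.19 (SE, adjusted p = 0.00404) and, without L and R, -0.56 (adjusted p = 0.0851). The higher gene was SELP, the adhesion molecule P-selectin, with 208, 393 and 336 against 104 to 133. The difference in SELP was 1.25 ± 0.24 (SE, adjusted p = 0.00516) log2 units, and 0.75 (adjusted p = 0.169) without L and R. Both differed in every Doberman.

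Fibroblast markers overlapped between the breeds, with sums of 50944, 47876 and 33341 against 42112 to 58242. Macrophage and monocyte markers spread widely, with sums of 14010.1, 10235 and 4822 in K, L and R and 5925 to 14756 in the Boxers. The list median relative to the Boxer mean was 0.81, 0.60 and -0.62 in K, L and R and -0.56 to 0.91 in the Boxers. ITGAM was above the Boxers in every Doberman (251.5, 299.9 and 291.3 against 76.8 to 247) but did not pass. Of 15 tested, LYZ alone passed, and it was lower where the median difference of the list was 0.45. LYZ encodes lysozyme and was lower in every Doberman, at 636, 235 and 319 in Dobermans K, L and R and 1729, 996, 1849 and 2868 in Boxers 1 to 4. The difference in LYZ was -2.21 ± 0.35 (SE, adjusted p = 0.00274) log2 units, and -1.43 (adjusted p = 0.102) without L and R. Among 7 lymphocyte markers, 2 were higher and 1 lower. CD3E, a chain of the T cell receptor complex, had 638, 1193 and 927 in Dobermans K, L and R and 383, 389, 199.8 and 293 in Boxers 1 to 4. CD3E differed by 1.49 ± 0.28 (SE, adjusted p = 0.00442) log2 units, and by 1.02 (adjusted p = 0.151) without L and R. CD4 gave 1.13 ± 0.29 (SE, adjusted p = 0.0127) and lost the call without Doberman L (0.85, adjusted p = 0.0631). JCHAIN, the joining chain made by plasma cells, had 767, 505 and 330.5 in Dobermans K, L and R and 1473, 1796, 1286 and 1594 in Boxers 1 to 4. For JCHAIN the log2 difference was -1.57 ± 0.24 (SE, adjusted p = 0.00254) and, without L and R, -0.98 (adjusted p = 0.0431). The lymphocyte sums were 2719, 3927 and 2981 in K, L and R against 2343 to 3249. Both neutrophil markers tested, CXCR2 (1.01 ± 0.28, adjusted p = 0.0177) and ITGB2 (0.83 ± 0.30, adjusted p = 0.0446), were higher, and neither passed without L or without R. No marker of atrial myocytes, erythrocytes, adipocytes or nerve passed with all samples, of 4, 1, 7 and 4 tested. The part of cell makeup in the gene differences was not tested.

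Of 9 genes of the major histocompatibility complex and antigen display 1 was higher and 2 lower, beside 16.8% and 17.3% of all genes. The 2 lower calls were lost without L or without R. DLA-DOA was higher in every Doberman, with 372, 674 and 465 against 137 to 281. The difference in DLA-DOA was 1.32 ± 0.27 (SE, adjusted p = 0.00627) log2 units, and 0.94 (adjusted p = 0.171) without L and R. B2M, the light chain of class I molecules, had 14626, 5358 and 3846 against 13311 to 15370.3, level in K and low in L and R. B2M differed by -1.11 ± 0.32 (SE, adjusted p = 0.0209) log2 units, and by 0.02 (adjusted p = 0.963) without L and R. It went from -1.67 without Doberman K to -0.71 without Doberman R. DLA-DRA, a class II chain, was lower at -1.32 ± 0.42 (SE, adjusted p = 0.028) and lost the call without any 1 of Doberman L, Doberman R, Boxer 1, Boxer 2 and Boxer 4 (-1.39 to -0.85, adjusted p = 0.051 to 0.135).

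Interferon response genes set K apart from all other samples. They were picked out after their values were seen, and none of the 7 tested passed in limma with all 3 Dobermans, although MX2 and IRF9 had an unadjusted p under 0.05. The antiviral GTPase MX1 had 6731, 650.4 and 532 in Dobermans K, L and R and 881, 735, 784 and 386 in Boxers 1 to 4. For MX1 the log2 difference was 0.98 ± 0.67 (SE, adjusted p = 0.256) and, without L and R, 3.30 (adjusted p = 0.0133). Its relative MX2 had 1819, 489 and 208 in Dobermans K, L and R and 263, 316, 208 and 149 in Boxers 1 to 4. The difference in MX2 was 1.29 ± 0.50 (SE, adjusted p = 0.0592) log2 units, and 2.92 (adjusted p = 0.00352) without L and R. K was the highest of the 7 arrays in both, L and R lay within the Boxer range in MX1, and L lay above it in MX2. ISG15, a ubiquitin-like protein, had 2251, 61.6 and 271 in K, L and R against 138 to 538 in the Boxers. ISG15 differed by 0.10 ± 0.80 (SE, adjusted p = 0.925) log2 units, and by 2.72 (adjusted p = 0.0296) without L and R. OAS2, which senses double-stranded RNA, had 1222, 207 and 178 against 176 to 241. For OAS2 the log2 difference was 0.74 ± 0.49 (SE, adjusted p = 0.241) and, without L and R, 2.46 (adjusted p = 0.00738). These 4 genes passed without L and R. CXCL10, TAP1 and IRF9 were also highest in K but gave 1.61 (adjusted p = 0.0567), 0.93 (adjusted p = 0.0945) and 0.60 (adjusted p = 0.091). The list median relative to the Boxer mean was 2.46, -0.03 and -0.21 in K, L and R. K being 1 sample, these are values of that heart and give no difference between the breeds.

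**Figure D5:**
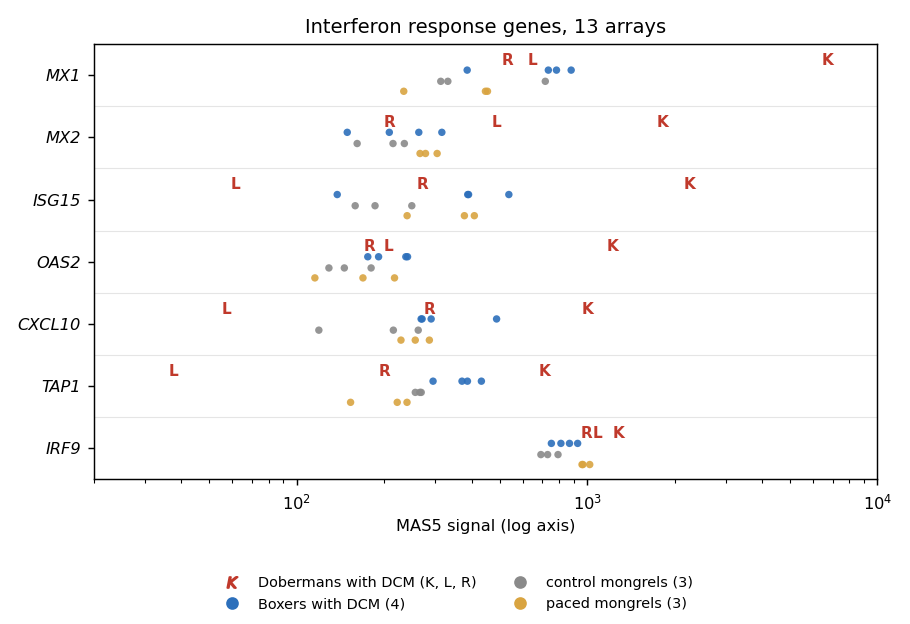
MAS5 signal of the 7 tested interferon response genes on a log axis, 1 mark per array, with Dobermans as letters, Boxers in blue, control mongrels in grey and paced mongrels in yellow. K is the rightmost mark for each of the 7 genes, and L and R lie among or below the Boxers for MX1, ISG15, OAS2, CXCL10 and TAP1.

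Different probe sets of a gene did not always give the same result. Among 526 genes that passed and had further tested probe sets, 232 had another probe set past the threshold in the same direction and 43 had one past it in the opposite direction. In all, 643 of the 1790 genes that passed still did so in each of the 7 fits that left out 1 sample. Among the genes chosen for their place in inherited heart muscle disease, STRN, PKP2, SGCD, PLN and SLC22A5 were not analysed here.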

How the data were processed

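Total RNA of 13 dog heart samples was hybridized to 1 Affymetrix canine array each, after one-cycle biotin labelling per the labels' protocols. The authors deposited linear signal intensities, made with MAS5 per the submitters' processing notes (version not given in the sources used here); the trimmed mean of each array was 500.1 when checked, which puts the arrays on a common level. Signals were analysed as log2(signal + 16). Of 23836 probe sets beside 77 controls, those with a mean under the 40th percentile (log2 6.95, a signal of 108) were left out. A model with 1 mean for each of 4 groups was fitted over the 13 arrays with limma 3.58.1 under R 4.3.3, with a trend in the moderated variances and 9 residual degrees of freedom, and tested on simulated data. Differences of genes under that signal depend on the pseudocount. The array annotation gave 10549 probe sets 1 symbol, 138 several and 13149 none; a gene was represented by its tested probe set of highest mean signal.

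Genes were named by rule: the 15 largest differences each way among genes that passed without overlap of the breeds; the 8 largest each way, outside those, among genes that also passed without Dobermans L and R; up to 4 passing members of smallest p per list and direction; and 24 genes of inherited disease. The comparison, its 36 gene lists and the rule were chosen with earlier results of these data known. Array measures were compared by exact permutation tests. No array was unassigned, all values of 0 (3 in number) were kept, and no sequences or coordinates were used.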

Additional observations from a re-analysis of the deposited data

Results flagged for a closer look

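Among 176 results examined in the 4 Boxers, 9 (5.11%) had 1 Boxer far from the other 3, and chance alone flags about 1 in 20. Boxer 1 was highest for RITA1 (3300.3, the others 1529 to 1702) and COL5A1 (1194.3, the others 1088 to 1104) and lowest for NRAP (8768.9, the others 12727 to 13576) and PSMA6 (2215.6, the others 2435 to 2482). Boxer 2 was highest for PSD (299.9, the others 165 to 176). Boxer 3 was lowest for KIF1B (60.1, the others 121 to 126) and PRKACA (183, the others 845 to 1021), and highest for DLD (10360.8, the others 9133 to 9332). Boxer 4 was lowest for PPP3CB (1013.3, the others 1348 to 1388). The 3 Dobermans were too few for this comparison.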

How the results depend on the processing

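Against 5066 probe sets with all samples, 306 passed without Dobermans L and R (199 of them shared with the same direction), 2268 when the 7 Doberman and Boxer arrays were fitted alone, and 56 with the GAPDH ratio as a covariate. Quantile normalization gave 3674 (42.2% higher, against 61.5%), and median centring 5105 (15.8% higher). Pseudocounts of 1 and 64 gave 4958 and 5192, array weights 4901 and no filter on signal 6108. Leaving out 1 sample at a time gave 2211 (without L) to 8089 (without K). With 1 probe set per gene, 1790 genes passed. Of 160 named genes that passed, 34 still did without L and R, 93 in the fit of 7 arrays, 121 after quantile normalization, 108 after median centring and 7 with the GAPDH covariate. The sign turned after quantile normalization for CRYAB (-0.029), TNNI3 (-0.062), MYL2 (-0.079), TNNC1 (-0.032) and MYH7 (-0.17), after median centring for PSME4 (-0.066), and with the GAPDH covariate for NRAP (-0.024), ATF4 (-0.068) and ATP1B1 (0.013). Without L and R it turned for TNNI3 (-0.0066), ASPH (-0.068), RPLP1 (-0.047), ATP1B1 (0.060), DDX3X (0.064), KCNJ8 (0.14), B2M (0.018), SOD2 (0.064) and HSPA5 (0.21). The cause was not tested. No paired analysis was possible because the Dobermans carry letters and the Boxers numbers. The number of arrays limits the precision, and the fits with K alone rest on 1 Doberman.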

Other observations

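Several further mitochondrial genes were among the 52 that were lower with and without Dobermans L and R. They were picked out here after their values were seen and get no count or test as a group. PCCB, a subunit of propionyl-CoA carboxylase, gave -1.58 ± 0.26 log2 units (SE, limma adjusted p = 0.00296) and -0.78 (adjusted p = 0.0325) without L and R. TOMM5, of the import pore of the outer membrane, had signals of 1036, 928 and 1518 in Dobermans K, L and R and 2347, 2149, 2376 and 2156 in Boxers 1 to 4 (-0.98 ± 0.20, adjusted p = 0.00536). COQ7, an enzyme of ubiquinone synthesis, had 722, 723 and 1139 in K, L and R against 1278, 1398, 1422 and 1332 in the Boxers (-0.68 ± 0.19, adjusted p = 0.0167; -0.89 (adjusted p = 0.0383) without L and R). In both TOMM5 and COQ7 every Doberman lay below every Boxer. FIS1, an adaptor of mitochondrial fission (-0.48 ± 0.17, adjusted p = 0.0429; -0.80 (adjusted p = 0.0438)), and GLRX5, which serves iron-sulphur cluster assembly (-0.89 ± 0.14, adjusted p = 0.00261; -0.80 (adjusted p = 0.0277)), were lower as well.

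CD38, an enzyme that consumes NAD and makes the calcium messenger cyclic ADP-ribose, had signals of 219, 137 and 134 in Dobermans K, L and R and 528, 608, 623 and 595 in Boxers 1 to 4 (-1.78 ± 0.20, adjusted p = 0.000938; -1.36 (adjusted p = 0.0133) without L and R). CLCC1, a channel protein of the endoplasmic reticulum, was higher, with 657, 637 and 553 against 268, 309, 257 and 332 (1.04 ± 0.18, adjusted p = 0.00377; 1.14 (adjusted p = 0.0383)). In both genes the breeds did not overlap.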
